A study of Drosophila melanogaster with 6 samples.

Results

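The vacuolar ATPase (V-ATPase) subunit genes were examined in Drosophila melanogaster S2-DRSC cells with and without a transgene for the Hox protein AbdA. Members were all genes in the count tables whose symbol starts with Vha followed by a digit, M, A, P or S, and 33 of 14770 genes met that rule. No measured value entered it. They code for 13 kinds of core subunit, 8 of the V1 domain and 5 of the V0 domain, and for 2 accessory proteins. Of these 15 kinds, 7 had 1 gene and 8 had several.

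Polyadenylated RNA was sequenced in 6 libraries. The 4 S2 libraries came from wild-type S2-DRSC cells, a line derived from late embryos. The 2 S2-AbdA libraries came from the same line after stable transfection with HA-tagged AbdA. All cells, transfected or not, received 10 µM copper sulphate for the 24 h before RNA was prepared. The labels list no cells that were transfected without AbdA, so the effect of AbdA and that of the stable transfection cannot be told apart. The sources used here do not give the promoter that drives the transgene or say whether the transfected line is 1 clone. The labels name the authors' table of changed genes beside S2 replicates 1 and 2 and beside both S2-AbdA libraries, and not beside S2 replicates 3 and 4, so the S2 libraries were kept as 2 sets. The labels do not state that replicates were separate cultures, so the spread behind each p-value is that between these libraries and may be technical.

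The V-ATPase is a rotary proton pump. Its peripheral V1 domain binds and splits ATP, and its membrane-embedded V0 domain carries protons into lysosomes, endosomes, the Golgi and secretory vesicles. Assembly of V1 on V0 switches the pump on, and the pump also serves as a platform for amino-acid signalling to TORC1 at the lysosome. Fly genomes carry several genes for many subunits, and some of these paralogues are known to be used in particular tissues such as the testis.

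The libraries held 34233132 to 69858688 counts. Transfected abd-A stood at 819828 and 505607 counts in S2-AbdA, against 996, 2308, 0 and 3 counts in S2 replicates 1 to 4. Summed levels of 10 plasmatocyte (blood cell) marker genes, as CPM (counts over the library's total, scaled to 1e+06), were 9828, 8207, 2017 and 5802 in the S2 libraries and 5985 and 6812 in S2-AbdA. Most of this sum came in every library from Cg25C and vkg (5337 and 3079 CPM in S2 replicate 1), so it says little of the scarcer markers. Summed levels of 4 metallothionein genes, which respond to copper, were 1220, 2611, 7476 and 4759 CPM in S2 and 4008 and 3155 CPM in S2-AbdA. S2 replicate 3 was the highest or the lowest of the 6 libraries by CPM for 70.5% of the 9375 genes tested. In bulk RNA, fewer cells of a type and less RNA per cell cannot be told apart.

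Together the 33 genes took 0.475% to 0.599% of a library's counts. Levels between genes were compared as RPKM, the CPM of a gene divided by its exonic length in kilobases. In each of the 15 kinds, the gene of highest mean RPKM over the 6 libraries was called the main gene, which made the other 18 paralogues. The 15 main genes averaged 26.1 to 591 RPKM and did not go below 14.3 RPKM in any library. Of the 18 paralogues, 14 stayed under 1 RPKM in every library, with a highest single value of 0.797 RPKM. The other 4 were Vha68-1, Vha36-2, Vha100-2 and VhaM9.7-c, of which Vha36-2 had the lowest peak, 2.85 RPKM. The choice used these levels, so the split is a description with no test.

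**Figure D1:**
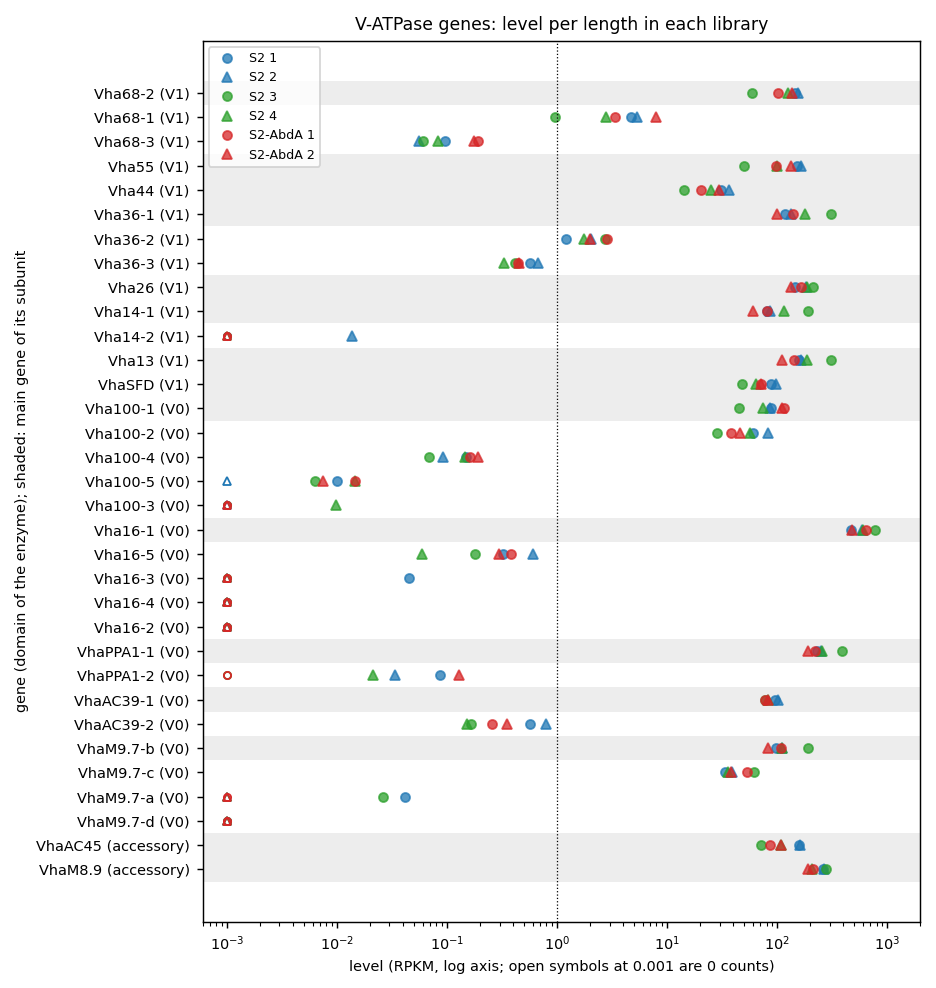
RPKM of each of the 33 genes (rows, grouped by domain) in the 6 libraries on a log axis; shaded rows are main genes, the dotted line marks 1 RPKM and open symbols stand for 0 counts. Main genes lie at 14.3 RPKM or more in every library, 14 paralogues lie to the left of the line, and Vha100-2 and VhaM9.7-c lie among the main genes.

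The main genes did not stand at 1 common level. Vha16-1, the c subunit that forms most of the proton-carrying ring and is present in several copies per enzyme, had the highest level, 591 ± 113 RPKM (SD, n = 6 libraries), and ranked 136 among 14468 genes with a known exonic length. VhaPPA1-1, the related c″ subunit of the ring, followed at 257 ± 70.0 RPKM. VhaM8.9, the fly ATP6AP2 or (pro)renin receptor homologue, averaged 235 ± 35.8 RPKM. At the lower end stood VhaSFD, the H subunit that bridges V1 and the stator, at 73.3 ± 17.8 RPKM, and Vha44, the C subunit that is released when the enzyme comes apart, at 26.1 ± 7.87 RPKM. Only 2 steps in this order had ranges that did not overlap, from Vha16-1 to VhaPPA1-1 and from VhaSFD to Vha44. Every other neighbouring pair overlapped over the 6 libraries. Lengths were those of all annotated exons of a gene together, so genes with several transcript ends have lower RPKM than they would per transcript.

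In the V1 head, which holds the ATP-binding sites, the catalytic A subunit is coded by Vha68-2, Vha68-1 and Vha68-3. Vha68-2 stood at 146, 156, 59.1 and 125 RPKM in S2 replicates 1 to 4 and at 101 and 138 RPKM in S2-AbdA. Vha68-1, whose product has the same length as that of Vha68-2 (614 residues), stood at 4.68, 5.33, 0.961 and 2.79 RPKM in S2 and at 3.39 and 7.95 RPKM in S2-AbdA. Vha68-3 stayed at 0.0561 to 0.0956 RPKM in S2 and at 0.190 and 0.176 RPKM in S2-AbdA, on 6 to 22 counts per library. Thus Vha68-2 made up 94.4% to 98.3% of the A-subunit level, and S2 replicate 3 was the lowest library for both Vha68-2 and Vha68-1. The 3 genes are neighbours on dm3 chromosome 2L: Vha68-2 (12974322 to 12978607) ends 178 bases before Vha68-3, and Vha68-1 lies 19476 bases beyond Vha68-3 on the other strand. Neighbouring genes thus differed by over an order of magnitude in level.

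Vha55, the only gene of the B subunit, which alternates with A in the head, stood at 150, 166, 50.3 and 99.0 RPKM in S2 and at 96.9 and 135 RPKM in S2-AbdA. S2 replicate 3 was again the lowest, and the S2-AbdA values lay inside the S2 range. Vha44 read 30.7, 36.2, 14.3 and 25.1 RPKM in S2 and 20.3 and 29.7 RPKM in S2-AbdA, and VhaSFD read 88.6, 97.5, 47.4 and 64.6 RPKM in S2 and 70.8 and 70.7 RPKM in S2-AbdA. For these genes too S2 replicate 3 was the lowest library and the groups overlapped.

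The D, F, G and E genes of the stalk and stators, Vha36-1, Vha14-1, Vha13 and Vha26, showed the opposite order of S2 libraries. This was not particular to them, as Vha16-1, VhaPPA1-1, VhaM9.7-b and VhaM8.9 were also highest in S2 replicate 3. Vha36-1, the D subunit of the rotating stalk, stood at 118, 133, 309 and 178 RPKM in S2 and at 139 and 100 RPKM in S2-AbdA. Vha14-1, the F subunit beside it, stood at 80.8, 85.4, 190 and 115 RPKM in S2 and at 81.5 and 60.5 RPKM in S2-AbdA. Vha13, the G subunit of the stators, stood at 157, 164, 308 and 188 RPKM in S2 and at 142 and 110 RPKM in S2-AbdA. In all 3 genes S2 replicate 3 was the highest library and S2 replicate 4 the second. The S2-AbdA values lay below every S2 value only for Vha13 among them. Vha26, the E subunit paired with G, followed the same order more narrowly, at 145, 182, 213 and 186 RPKM in S2 and 164 and 134 RPKM in S2-AbdA.

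Paralogues of the stalk subunits were scarce. Vha36-2 stood at 1.22, 2.03, 2.71 and 1.76 RPKM in S2 and at 2.85 and 1.98 RPKM in S2-AbdA, or 0.869% to 2.01% of the D-subunit level. Vha36-3 ranged from 0.332 to 0.671 RPKM over the 6 libraries. Vha14-2 had 1 count in all, in S2 replicate 2. These are the stalk genes with the fewest counts, and the groups overlapped for Vha36-2 and Vha36-3.

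Among the V0 genes, the a subunit, which holds the proton channels and directs the enzyme to particular membranes, was read mainly from a pair of genes. Vha100-1 (dm3 chromosome 3R, 24956915 to 24963691, plus strand), known in fly neurons from synaptic vesicles, stood at 87.5, 85.5, 44.9 and 74.9 RPKM in S2 and at 115 and 110 RPKM in S2-AbdA. Vha100-2 (3R, 14216045 to 14224891, minus strand) stood at 60.7, 82.6, 28.4 and 56.3 RPKM in S2 and at 37.9 and 45.6 RPKM in S2-AbdA. Both S2-AbdA libraries were above all S2 libraries for Vha100-1, whereas for Vha100-2 they lay inside the S2 range.

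The other a-subunit genes were scarce. Vha100-4, which begins 519 bases downstream of the end of Vha100-2 on the same strand, had 10 to 28 counts per library (0.0679 to 0.190 RPKM). Vha100-5 had 8 counts over all libraries and Vha100-3 had 2, both in S2 replicate 4. Vha100-3 lies inside the span of sano on the other strand. Part of Vha100-2 overlaps CG44009 on the other strand, which had 1031, 1404, 2614 and 2161 counts in S2 and 1349 and 1041 in S2-AbdA. The sources used here do not state whether the counting used strand, so reads of such pairs cannot be told apart.

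Vha16-1 had 466, 594, 772 and 602 RPKM in S2 and 639 and 475 RPKM in S2-AbdA, and made up at least 99.9% of the c-subunit level in every library. Its paralogue Vha16-5 had 3 to 19 counts per library, Vha16-3 had 1 count in all, and Vha16-2 and Vha16-4 had 0 counts in every library. A count of 0 allows up to 3 counts, or 0.0429 to 0.0876 CPM depending on the library (counting error only). The c subunit was thus read almost wholly from 1 of 5 genes.

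VhaPPA1-1 stood at 230, 249, 392 and 256 RPKM in S2 and at 222 and 191 RPKM in S2-AbdA, so that both S2-AbdA libraries lay below all S2 libraries. VhaPPA1-2, whose product also has 212 residues and whose gene lies 2048 bases away with 1 gene between, had 0 to 4 counts per library. VhaAC39-1, the d subunit that couples the stalk to the ring, was the steadiest main gene by SD over mean, at 95.9, 102, 77.3 and 83.1 RPKM in S2 and 77.8 and 82.6 RPKM in S2-AbdA. VhaAC39-2, of the same 350 residues, stood at 0.569, 0.797, 0.165 and 0.151 RPKM in S2 and at 0.257 and 0.350 RPKM in S2-AbdA. It was highest in S2 replicates 1 and 2 and lowest in S2 replicates 3 and 4.

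The e subunit, a small hydrophobic protein of V0, was also read mainly from a pair of genes. VhaM9.7-b stood at 96.8, 111, 189 and 111 RPKM in S2 and at 109 and 83.2 RPKM in S2-AbdA. VhaM9.7-c stood at 33.5, 39.0, 62.1 and 35.7 RPKM in S2 and at 53.3 and 37.7 RPKM in S2-AbdA. VhaM9.7-a had 2 counts in all and VhaM9.7-d had 0. VhaM9.7-c lies whole inside the span of Teh2 on the same strand, and Teh2 itself had 2 to 9 counts per library. Both VhaM9.7-b and VhaM9.7-c were highest in S2 replicate 3, and the S2-AbdA and S2 ranges overlapped for each.

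The accessory genes differed in their spread. VhaAC45, the homologue of ATP6AP1 that helps assemble V0, stood at 159, 161, 71.1 and 109 RPKM in S2 and at 86.0 and 108 RPKM in S2-AbdA. VhaM8.9 stood at 260, 265, 276 and 207 RPKM in S2 and at 211 and 192 RPKM in S2-AbdA. For VhaAC45 the S2-AbdA values lay between those of S2 replicates 3 and 4, and for VhaM8.9 they lay around the lowest S2 value, with overlap.

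Main and low-level genes also differed in gene structure in a later annotation of the fly genome. The median of the largest exon number per gene was 4 for the 15 main genes and 2 for the 14 low-level genes. A single exon was annotated for 2 main genes, Vha36-1 and Vha14-1, and for 6 low-level genes. More than 1 transcript was annotated for 11 of the 15 main genes and for 5 of the 14 low-level ones. Annotation itself draws on how much RNA a gene yields, and its part in these counts was not tested.

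Of the 33 genes, 24 had enough counts to be tested, namely the 15 main genes and 9 paralogues. A gene was said to rise or fall where edgeR's quasi-likelihood test gave it an adjusted p (Benjamini-Hochberg, over all genes tested) under 0.10. In S2-AbdA against S2 replicates 1 and 2, the comparison to which the labels point, 10.4% of all genes tested passed (3.0% higher and 7.36% lower), and 0 of the 24 V-ATPase genes did. At an unadjusted p under 0.05 there were 4 of the 24 (16.7%), near the share of all genes tested (1598 of 9375), and DESeq2 called 0 of the 24. The 15 main genes had log2 fold changes of -0.75 to 0.34 with a median of -0.34, against a median of -0.02 over all genes tested, and 13 of the 15 were below 0. All 8 main V1 genes were below 0, from -0.48 (Vha55) to -0.11 (Vha36-1), none past the test. A shift of this size was within the error of each gene. For Vha68-2, at a mean of 329 CPM in S2-AbdA and 417 CPM in S2 replicates 1 and 2, the value was -0.38 (SE 0.37) with a 95% interval of -1.18 to 0.42, and for Vha16-1 it was 0.03 (SE 0.38) with an interval of -0.81 to 0.87.

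The 4 genes at an unadjusted p under 0.05 were Vha68-3 (log2 fold change 1.25, SE 0.53, adjusted p = 0.238), VhaAC39-2 (-1.21, SE 0.48, adjusted p = 0.192), Vha100-2 (-0.82, SE 0.37, adjusted p = 0.290) and VhaAC45 (-0.75, SE 0.34, adjusted p = 0.286), by edgeR. Vha68-3 and VhaAC39-2 are low-level, with under 1 RPKM. The authors' deposited table of 2122 genes at an FDR under 0.10 held 3 V-ATPase genes and not the other 30. In the authors' deposited table VhaAC39-2 was at -1.21 (FDR 0.0364), Vha100-2 at -0.82 (FDR 0.0547) and VhaAC45 at -0.73 (FDR 0.0856), turned to S2-AbdA over S2. The fold changes of the deposited table and of edgeR with 3 sets were thus nearly the same for these genes, while the calls differed. With only replicates 1 and 2 of both groups in the fit, Vha100-2 and VhaAC45 passed (adjusted p = 0.0425 and 0.0472), and they also passed without S2 replicate 3 (0.0259 and 0.0327) or without S2 replicate 4 (0.0348 and 0.0381). VhaAC39-2 did not pass in any of these fits.

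**Figure D2:**
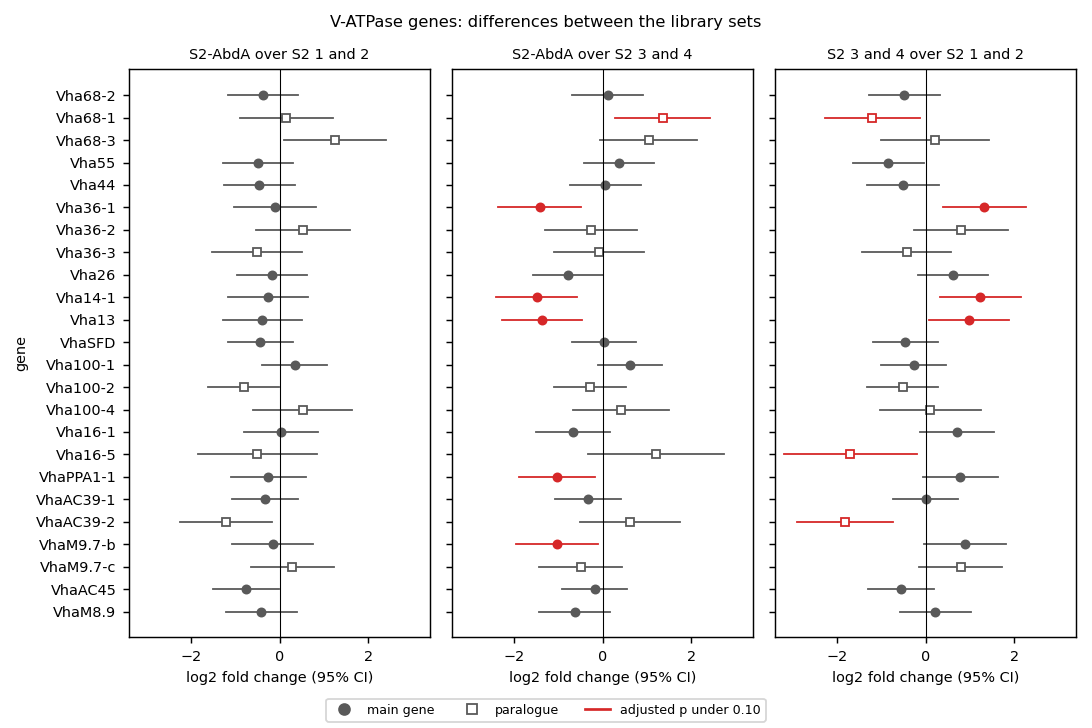
Log2 fold change (point) and 95% confidence interval (line) of the 24 tested genes in the 3 comparisons of library sets; filled circles are main genes, open squares paralogues, and red marks an adjusted p under 0.10. No gene is red on the left, 6 are red in the middle (Vha68-1 higher, 5 main genes lower) and 6 on the right.

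Against S2 replicates 3 and 4, 31.8% of all genes tested passed (14.7% higher in S2-AbdA and 17.1% lower), and so did 6 of the 24 V-ATPase genes. Lower in S2-AbdA were the stalk and stator genes Vha14-1 (log2 fold change -1.50, SE 0.42, adjusted p = 0.0316 by edgeR), Vha36-1 (-1.43, SE 0.43, adjusted p = 0.0394) and Vha13 (-1.37, SE 0.42, adjusted p = 0.0401), and the V0 genes VhaPPA1-1 (-1.03, adjusted p = 0.0801) and VhaM9.7-b (-1.04, adjusted p = 0.0972). Vha68-1 was higher (1.36, SE 0.49, adjusted p = 0.0704). Of 13 alternatives, the call held in 12 for Vha14-1 and Vha13, 11 for Vha36-1 and 10 for Vha68-1, but in only 4 for VhaPPA1-1 and 3 for VhaM9.7-b. The calls of VhaPPA1-1 and VhaM9.7-b were lost on library size alone, with upper-quartile scaling, with a filter of 1 CPM in 2 libraries, with the length offset and with any 1 library left out except S2 replicate 4 (adjusted p up to 0.365 and 0.455 by edgeR). Without S2-AbdA replicate 2 the count of V-ATPase genes past the test fell, and without S2 replicate 4 it rose. The count over all genes tested moved the same way in both fits. This comparison shares its S2-AbdA libraries with the one above, so the results are not independent. For Vha36-1 and Vha14-1 the values against S2 replicates 1 and 2 were -0.11 and -0.27.

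The S2 sets differed from each other as well. Between S2 replicates 3 and 4 and S2 replicates 1 and 2, 37.0% of all genes tested passed (18.1% higher in replicates 3 and 4 and 18.9% lower), and again 6 of the 24. Higher in replicates 3 and 4 were Vha36-1 (log2 fold change 1.32, SE 0.43, adjusted p = 0.0466 by edgeR), Vha14-1 (1.23, SE 0.42, adjusted p = 0.0545) and Vha13 (0.98, SE 0.41, adjusted p = 0.0969). Lower were the paralogues VhaAC39-2 (-1.83, SE 0.50, adjusted p = 0.0252), Vha16-5 (-1.70, SE 0.69, adjusted p = 0.0879) and Vha68-1 (-1.21, SE 0.49, adjusted p = 0.0885). Vha55 stood just outside the threshold (-0.85, adjusted p = 0.103 by edgeR), and it was called lower in 7 of 13 alternatives. The call of Vha13 held in 3 of 13 alternatives, that of Vha14-1 in 8, that of Vha36-1 in 9 and that of Vha68-1 in 8, and the calls of VhaAC39-2 and Vha16-5 held in 11 and 8 of 12. The count of V-ATPase genes past the test was 1 with S2 replicate 1 left out, 0 with S2 replicate 2 left out, 2 with replicate 3 left out and 17 with replicate 4 left out. Without S2 replicate 4, 6354 of 9702 genes passed, so the count over all genes moved too. Whether the V-ATPase share differed from that of all genes was not tested.

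By CPM and RPKM over library totals, S2 replicate 3 was the highest library for 8 of the 15 main genes and the lowest for the other 7, against 70.5% of all genes tested for which it was at either end. It was highest for Vha36-1, Vha14-1, Vha13, Vha26, Vha16-1, VhaPPA1-1, VhaM9.7-b and VhaM8.9. It was lowest for Vha68-2, Vha55, Vha44, VhaSFD, Vha100-1, VhaAC39-1 and VhaAC45. Of the 9 paralogues tested, it was at either end for 4 (44.4%) by CPM. This split depended on the scaling. With totals scaled by TMM, as in the tests, S2 replicate 3 was the highest for 9 main genes, the same 8 and VhaAC39-1, and the lowest for 4, namely Vha68-2, Vha55, VhaSFD and Vha100-1. Over the 24 tested V-ATPase genes it was then at either end for 66.7%, against 70.2% of all genes tested. Vha44 and VhaAC45 were then lowest in S2-AbdA replicate 1. Between the S2 sets, 3 main genes passed the test upward and 0 downward, against 18.1% and 18.9% of all genes tested. This split moved with scaling too: 2 main genes upward and 1 downward with upper-quartile scaling, and 0 and 1 on library size alone.

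**Figure D3:**
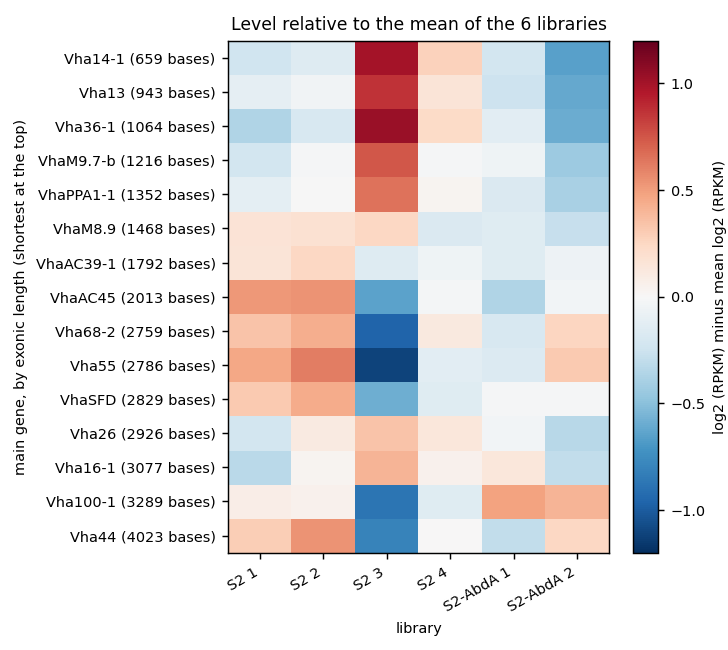
Log2 RPKM of each main gene minus its mean over the 6 libraries (colour), on library totals without TMM scaling, with genes ordered from the shortest exonic length (659 bases, Vha14-1) to the longest (4023 bases, Vha44). In S2 replicate 3 the short genes are above their mean and most long genes below it; Vha26 and Vha16-1 are long and above.

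Exonic length moved with this split. All 6 main genes shorter than 1600 bases had a positive log2 fold change between the S2 sets (replicates 3 and 4 over 1 and 2, 0.21 to 1.32), as had 2 of the 9 longer ones, Vha26 (0.60) and Vha16-1 (0.70). The cut of 1600 bases was not planned beforehand. It falls in the gap between VhaM8.9 (1468 bases) and VhaAC39-1 (1792 bases, log2 fold change -0.006), so these counts are a description with no test. Across the 15 main genes, Spearman's rho between exonic length and the log2 fold change was -0.682, and across 9317 genes tested it was -0.341. These are correlations across genes, which share libraries and are not independent replicates. With an offset for exonic length, rho was -0.186 across the main genes, and 5 main genes passed the test, 3 higher and 2 lower. Of the 3 called without the offset only Vha36-1 stayed, while Vha14-1 and Vha13 lost their calls. Vha16-1 and Vha26 entered as higher, and Vha55 and VhaAC45 as lower. For S2-AbdA against S2 replicates 3 and 4, which share S2 libraries with the comparison of the S2 sets, rho was 0.77 across the main genes and 0.39 across all genes, and 0.29 and 0.01 with the offset. The 5 main genes lower in that comparison were all shorter than 1600 bases. With the offset VhaPPA1-1 and VhaM9.7-b lost their calls, while the longer Vha16-1 and Vha26 entered as lower. The count of main genes lower thus stayed at 5. For S2-AbdA against S2 replicates 1 and 2, rho was -0.04 across the main genes and 0.08 across all genes. The part of RNA quality or library preparation in this relation was not tested.

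**Figure D4:**
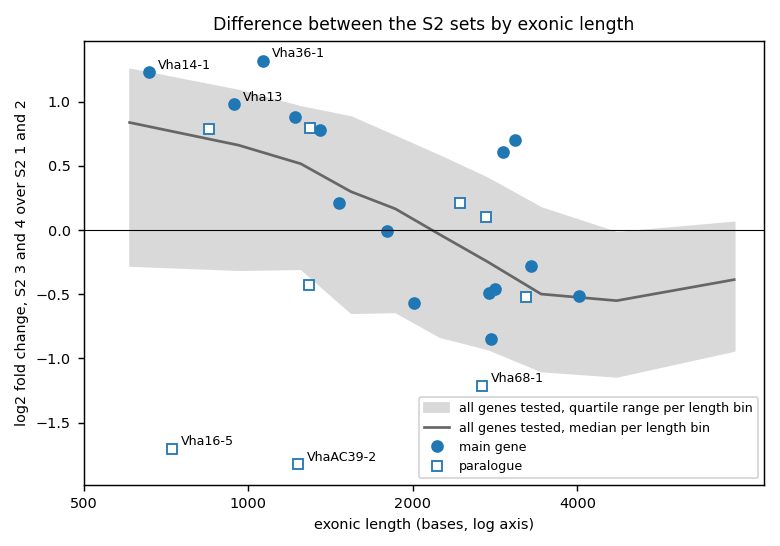
Log2 fold change between the S2 sets (S2 replicates 3 and 4 over S2 replicates 1 and 2) against exonic length on a log axis for the 24 tested V-ATPase genes, with the median (line) and quartile range (grey) of all genes tested in 10 length bins. Genes past the test are named; the 6 main genes under 1600 bases lie above 0, and VhaAC39-2 and Vha16-5 lie far below the grey band.

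Ratios within a subunit compare genes of 1 family inside each library, so that a factor common to a library cancels. The ratio of Vha100-1 to Vha100-2 (RPKM) was 1.44, 1.03, 1.58 and 1.33 in S2 and 3.04 and 2.40 in S2-AbdA. Both S2-AbdA ratios were above every S2 ratio, and the genes have similar exonic lengths (3289 and 3222 bases). Vha100-1 made up 54.9% ± 5.77 of the a-subunit level in S2 replicates 1 and 2 and 59.1% ± 2.99 in S2 replicates 3 and 4, against 72.8% ± 3.27 in S2-AbdA (SD, n = 2 each). The log2 ratio was 1.02 higher in S2-AbdA than in the 4 S2 libraries. The difference was 1.15 against S2 replicates 1 and 2 alone and 0.90 against S2 replicates 3 and 4 alone, which share the S2-AbdA libraries, and stayed between 0.85 and 1.19 with any 1 library left out.

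The ratio of VhaM9.7-b to VhaM9.7-c was 2.89, 2.86, 3.04 and 3.12 in S2 and 2.04 and 2.21 in S2-AbdA. Both S2-AbdA values were below every S2 value, with a log2 difference of -0.49 against an SD of 0.06 among the S2 libraries and 0.08 between the S2-AbdA libraries. The ratio of Vha36-1 to Vha36-2 was 96.8, 65.4, 114 and 101 in S2 and 48.7 and 50.6 in S2-AbdA (log2 difference -0.90), again with no overlap. The ratio of Vha68-2 to Vha68-1 was 31.2, 29.2, 61.5 and 44.7 in S2 and 29.7 and 17.3 in S2-AbdA (log2 difference -0.81), with overlap. The paralogue thus had a larger share of its family in S2-AbdA for the e and D subunits, and a smaller one for the a subunit. These 4 ratios, for the paralogues above the low-level threshold, were compared after their values were seen. The exact two-sided permutation p was 0.133 for the a, e and D subunits (0.178 adjusted over the 4 ratios) and 0.267 for the A subunit (adjusted 0.267). With 2 against 4 libraries 0.133 is the smallest p possible, so no ratio could pass 0.05.

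**Figure D5:**
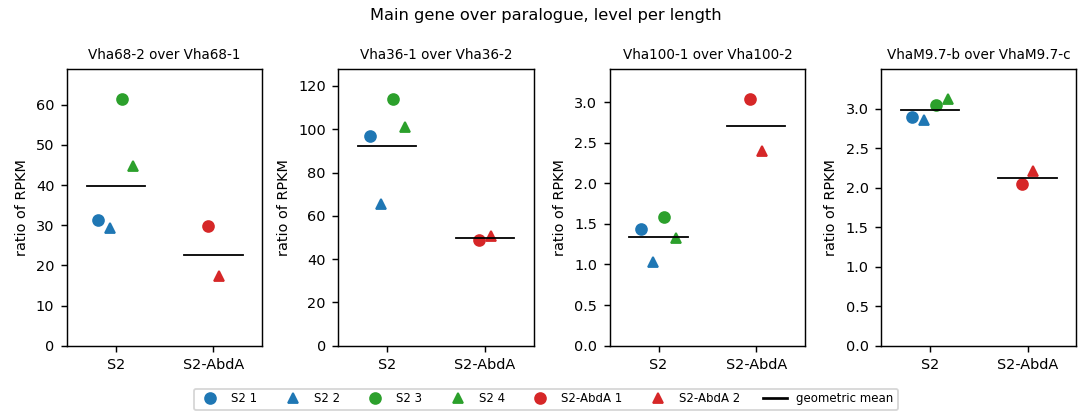
Ratio of the RPKM of the main gene to that of its paralogue in each library for the 4 paralogues above the low-level threshold (linear axes from 0; bars are geometric means of a group). The S2-AbdA points lie above all S2 points for Vha100-1 over Vha100-2 and below them for VhaM9.7-b over VhaM9.7-c and Vha36-1 over Vha36-2.

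By CPM, S2-AbdA lay above all 4 S2 libraries for 3 of the 24 tested genes, Vha100-1, Vha68-3 and Vha100-4, against 16.7% of all genes tested. It lay below all 4 for 2 of the 24, Vha13 and VhaPPA1-1, against 8.13% of all genes. With totals scaled by TMM, 3 of the 24 lay above (12.6% of all genes) and 5 below (11.6% of all genes), the latter with Vha14-1, VhaM8.9 and VhaAC39-1 in addition. Vha100-1 had log2 fold changes of 0.34 (SE 0.33, adjusted p = 0.819 by edgeR) against S2 replicates 1 and 2 and 0.62 (SE 0.34, adjusted p = 0.196) against S2 replicates 3 and 4.

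Genes that work with the V-ATPase were read from lists written beside the members. Of 18 tested partners and TORC1 genes, 1 fell and 0 rose against S2 replicates 1 and 2, with a median log2 fold change of -0.04. The gene that fell was Mitf, the fly homologue of TFEB, a transcription factor known to activate V-ATPase and lysosome genes. It stood at 51.0, 49.0, 39.8 and 50.9 CPM in S2 and at 25.8 and 20.7 CPM in S2-AbdA, and both S2-AbdA libraries lay below all S2 libraries. Its log2 fold change was -1.14 (adjusted p = 0.0675 by edgeR) against S2 replicates 1 and 2 and -1.28 (adjusted p = 0.0263) against S2 replicates 3 and 4. The call against S2 replicates 3 and 4 held in 11 of 13 alternatives and was lost with either S2-AbdA library left out. The call against S2 replicates 1 and 2 held in 12 of 17 alternatives, with log2 fold changes of -1.29 to -1.01 in all 17. It was lost with either of S2 replicates 1 and 2 or either S2-AbdA library left out and with the 4 S2 libraries as 1 group (adjusted p up to 0.509). Against S2 replicates 3 and 4, 1 gene of this list was higher, mio (1.03, adjusted p = 0.0923 by edgeR). There CG5969, the Vma21 homologue that serves V0 assembly, was lower besides Mitf (-1.51, adjusted p = 0.0241). The call of mio held in 7 of 13 alternatives and was lost with any 1 library left out except S2 replicate 4 (adjusted p up to 0.394), and that of CG5969 was lost without S2-AbdA replicate 2 (12 of 13 kept it). The assembly factors Rbcn-3A and Rbcn-3B did not pass the test in any of the 3 comparisons.

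Against S2 replicates 1 and 2, 3.0% of all genes tested rose and 7.36% fell. Of 22 tested genes on the lysosome list, 2 rose and 5 fell in that comparison, with a median of -0.46. Those of smallest adjusted p were Swim (log2 fold change -3.15, adjusted p = 7.08e-04 by edgeR), Gal, the lysosomal beta-galactosidase (-2.86, adjusted p = 0.00231), cln3, of a lysosomal membrane protein (adjusted p = 0.00251), and CG5322 or LManI, an alpha-mannosidase (-3.69, adjusted p = 0.0160). The call of CG5322 was lost without S2 replicate 1, 3 or 4 (10 of 17 alternatives kept it). For cln3, S2 replicates 1 and 2 held 0 and 1 counts, or 0 and 0.0228 CPM, against 0.612 and 0.798 CPM in S2-AbdA, so no fold change is given. Swim had 2842 and 2252 CPM in S2 replicates 1 and 2, 158 and 121 CPM in S2 replicates 3 and 4, and 318 and 272 CPM in S2-AbdA, so that S2 replicates 3 and 4 lay below S2-AbdA. Gal had the same order on 4 to 87 counts per library, at 1.67 and 1.99, 0.074 and 0.086, and 0.27 and 0.24 CPM. Against S2 replicates 3 and 4, 2 genes of this list were higher and 3 lower, against 14.7% and 17.1% of all genes tested. With 1 library left out these counts ranged from 1 to 3 higher and 3 to 9 lower in the first comparison, and from 1 to 5 higher and 1 to 8 lower in the second. Of 26 endosome and trafficking genes, 0 passed against S2 replicates 1 and 2 by edgeR, 0 by DESeq2 and 0 at an unadjusted p under 0.05, with a median of 0.16 and the smallest p for CG32350, the Vps11 homologue (0.83, adjusted p = 0.349), and 2 were higher and 4 lower against S2 replicates 3 and 4. Without S2-AbdA replicate 2 the last counts fell, and without S2 replicate 4 they rose. The counts over all genes tested moved the same way.

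The mitochondrial F-type ATP synthase, the rotary enzyme of the same superfamily that makes ATP, was listed for comparison. Of its 14 tested genes, 0 passed in S2-AbdA against S2 replicates 1 and 2 by edgeR or DESeq2, and 0 had an unadjusted p under 0.05, with a median log2 fold change of -0.24 and the smallest p for ATPsyn-beta (-0.74, adjusted p = 0.411 by edgeR). Of all genes tested, 17.1% were lower against S2 replicates 3 and 4. Among the F-type genes 11 of the 14 were lower there (median -1.45), with ATPsyn-beta at -2.16 (adjusted p = 0.00516 by edgeR). Without S2-AbdA replicate 2 the count was 5. Between the S2 sets 10 of the 14 were higher in S2 replicates 3 and 4 (median 1.26), against 18.1% of all genes tested. Among the 10 was sun, the epsilon subunit (1.87, adjusted p = 0.0109 by edgeR). Without S2 replicate 2 only ATPsyn-b passed, and sun did not (adjusted p = 0.117); without S2 replicate 1 the count was 6. The V-ATPase main genes had medians of -0.63 and 0.21 in these comparisons. The lists were not tested against each other.

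Blood cell markers differed between the same sets. Of 10 plasmatocyte markers, 0 were higher and 5 lower in S2-AbdA against S2 replicates 1 and 2 (median -1.58). Of all genes tested, 7.36% were lower in that comparison. Between the S2 sets 7 markers were lower in replicates 3 and 4 (fewer without S2 replicate 1 or 2), against 18.9% of all genes tested. Against S2 replicates 3 and 4, eater, Sr-CI and nimC1 were higher in S2-AbdA (2.36 and 2.28 for eater and Sr-CI) and Pxn lower (-3.46). The higher call of nimC1 rests on 0 and 3 counts in S2 replicates 3 and 4 and 8 and 12 in S2-AbdA, so no fold change is given. Sr-CI had 17 and 13 counts against 37 and 106. The median of the 10 markers in this comparison was 0.80. Without S2-AbdA replicate 2, 0 were higher there and 2 lower. Of 3 crystal cell markers, 3 were lower in S2-AbdA against S2 replicates 1 and 2 and 3 in S2 replicates 3 and 4 against 1 and 2, with summed levels of 90.0, 14.97, 2.28 and 1.03 CPM in S2 and 0.738 and 1.60 CPM in S2-AbdA. Between the S2 sets the call of lz held with any 1 library left out. The gene proPO45, of a prophenoloxidase, stood at 122, 11, 16 and 10 counts in S2 replicates 1 to 4, and without S2 replicate 1 its log2 fold change between the S2 sets was 0.11 (adjusted p = 0.941 by edgeR) in place of -2.79. In S2-AbdA against S2 replicates 1 and 2, proPO45 and lz did not pass without S2 replicate 1 (log2 fold changes of -1.25 and -2.23). The call of proPO45 was also lost without S2 replicate 3 or 4, on library size alone and with replicates 1 and 2 of both groups alone. The prophenoloxidase gene proPO-A1 passed in both comparisons without S2 replicate 1 (adjusted p = 3.17e-05 and 7.22e-04 by edgeR), but in neither without S2 replicate 3 or 4 (adjusted p of at least 0.142). No plasmatocyte marker was at 0 in S2-AbdA, while nimC1 was at 0 in S2 replicate 3. The lamellocyte marker tested, proPO59, did not pass in any comparison. Of the metallothionein genes, MtnD rose by 2.24 and MtnB by 1.90 (log2) in S2-AbdA against S2 replicates 1 and 2, with adjusted p-values of 0.0234 and 0.0822 by edgeR. Against S2 replicates 3 and 4, MtnA was lower in S2-AbdA (-1.18, adjusted p = 0.0890 by edgeR). Between the S2 sets, MtnD, MtnA and MtnB were higher in replicates 3 and 4 (2.85, 2.02 and 1.71). The part of cell state and of copper response in the V-ATPase values was not tested.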

How the data were processed

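The authors deposited raw counts per gene for each of the 6 libraries, not normalized, with symbol, NCBI gene number and dm3 coordinates. They also deposited a table of 2122 genes with log2 values, p-values and FDR. Its column headed logConc followed the log2 count ratio (r = -0.942 across genes, pseudocount 0.1 CPM) and was turned around. CASAVA, edgeR and dm3 are named, without versions, in the submitters' processing notes. The sources used here do not give the aligner, the counter or the strand setting.

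Exonic lengths came from a later annotation through the gene number (14468 genes, all 33 members). It names VhaM8.9 as ATP6AP2. Coordinates are dm3. Genes kept by filterByExpr on 3 sets (9375) were scaled by TMM, with factors of 0.752 for S2 replicate 3 and 1.00 to 1.10 for the others, and tested with edgeR 4.0.16 in R 4.3.3 (quasi-likelihood F test, robust, all 6 libraries in 3 sets, Benjamini-Hochberg over all genes). The biological coefficient of variation was 0.291, with 3 residual degrees of freedom. DESeq2 1.42.0 was an alternative. The fit was checked on simulated counts that held no difference between the S2 sets and no relation to exonic length. That check therefore does not show how well the fit suits these libraries. RPKM, ratios and figures were made in Python 3.11.15 with pandas 2.3.3, scipy 1.17.1 and matplotlib 3.10.9. Depth was 34233132 to 69858688 counts, so 3 counts equal 0.0429 to 0.0876 CPM, for counting error only.

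Members and lists were chosen with earlier results of these data known. All members are named, and of each list the genes past the test, up to 4 of smallest adjusted p, or the 1 of smallest p where none passed, in S2-AbdA against S2 replicates 1 and 2; mio, CG5969, sun, ATPsyn-b, Rbcn-3A, Rbcn-3B and the markers named against S2 replicates 3 and 4 were named after their values were seen. List entries were matched by symbol, and 4 entries without a match (trpml, Asah1, Lamtor2, Vps41) were not analysed here. The entry for sun also carried the name of a paralogue, which was not used. The highest and lowest library per gene under TMM scaling was an alternative added after seeing the data. Alternatives covered scaling, filters, tool, exonic length, sample choice and leaving out each library. Library scaling, filters and length can move values of short and scarce genes most.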

Additional observations from a re-analysis of the deposited data

Results flagged for a closer look

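In the 4 S2 libraries, VhaPPA1-1 stood at 530 CPM in S2 replicate 3 (529.9), against 311, 337 and 345 CPM in replicates 1, 2 and 4. It was picked out because the gap from the highest library to the next, as a share of the whole range, was above 0.829, Dixon's 95% limit for 4 samples. VhaM9.7-b was picked out in the same way, at 229 CPM in S2 replicate 3 (229.4) against 118, 136 and 135 CPM. S2 replicate 3 was the highest S2 library in both. In all, 24 tested genes and 4 ratios were examined so, 28 in total, and chance picks out about 1 in 20 groups. Without S2 replicate 3, neither VhaPPA1-1 nor VhaM9.7-b passed the test in S2-AbdA against the remaining S2 replicate 4.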

How the results depend on the processing

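Precision was limited by 2 libraries per set. For S2-AbdA against S2 replicates 1 and 2, the 971 genes past the test became 1744 with replicates 1 and 2 of both groups alone and 46 with the 4 S2 libraries as 1 group, and ranged from 658 to 1829 with 1 library left out. The 0 V-ATPase genes past the test became 1 with the length offset (0 of them main), 2 with replicates 1 and 2 alone (1 main), and 0 to 2 (0 to 1 main) with 1 library left out. With a replicate block, 1592 genes and 2 V-ATPase genes passed (1 main), and with the block and length offset 2 V-ATPase genes (1 main). Deviations of same-numbered libraries had a correlation of -0.00683 across 9375 genes, so the numbers were not shown to pair the libraries.

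Against S2 replicates 3 and 4, 6 V-ATPase genes (5 main) became 3 (2 main) on library size alone. These were Vha14-1 and Vha13, which kept their calls, and Vha68-3, which was not called in the main fit. Main genes past the test were 3 with upper-quartile scaling and 3 with a filter of 1 CPM in 2 libraries. With 1 library left out, 1054 to 5992 genes, 0 to 12 V-ATPase genes and 0 to 10 main genes passed. Between the S2 sets, 6 V-ATPase genes (3 main, all higher) became 3 (1 main) on library size alone. That 1 main gene was Vha55, lower, while Vha36-1, Vha14-1 and Vha13 lost their calls. With the length offset 5 main genes passed, 3 higher and 2 lower. With 1 library left out, 1048 to 6354 genes, 0 to 17 V-ATPase genes and 0 to 12 main genes passed. Where a fit left 1 library in a set, that library was assumed to vary like the others. The cause of these moves was not tested.

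Library size alone shifted the median log2 fold change of all genes by 0.30 (S2-AbdA against S2 replicates 3 and 4) and -0.27 (S2 sets), and upper-quartile scaling gave -0.15 for the S2 sets. The calls were then 1536 higher and 779 lower in the first, against 1377 and 1600, and 760 higher and 1738 lower in the second, against 1698 and 1772. Upper-quartile scaling gave 1170 and 1981 for the S2 sets. No called V-ATPase gene changed sign under any alternative run. The crystal cell marker proPO45, at a log2 fold change of -2.79 between the S2 sets, ranged from -3.73 to 0.11 with 1 library left out, the latter without S2 replicate 1. The main gene of each family was the same by CPM (15 of 15), and 15 paralogues in place of 14 stayed under 5 RPKM.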
